A study of Mus musculus with 4 samples.

Results

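The genes described here are 7 genes of Schwann cells and of the myelin they make, Mbp, Prx, Pmp22, Mag, Egr2, L1cam and Ngfr, chosen by name from the 24441 genes of the deposited table, where all 7 are listed. Their RNA was measured in 2 libraries of skin lesions from WT mice and 2 from GSDMD KO (GSDMD-/-) mice. The labels describe all 4 as coming from female C57BL/6 mice of post natal week 8, a sex that the Y-linked genes given below go against in 1 library. All the mice had received subcutaneous bleomycin (BLM), a cytotoxic antibiotic used to cause skin fibrosis, every other day for 28 days. The GSDMD KO line was made by injecting Cas9 mRNA and a guide RNA into fertilized eggs, so the change is in the germ line and not limited to a cell type, and no saline-treated skin is among the 4 libraries. The values are FPKM, the number of sequenced fragments scaled by transcript length and library depth, and the libraries summed to between 448544 and 462251 FPKM. Because the biopsies are whole skin, fewer cells of a type and less RNA per cell cannot be told apart in any value below.

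Schwann cells accompany the axons of the peripheral nerves in skin. Some wrap a single large axon in compact myelin, a stack of membrane held together by proteins such as MBP and PMP22. Others enclose bundles of thin pain and temperature fibres without making myelin, and these cells keep adhesion molecules and receptors such as L1CAM and NGFR. The transcription factor SOX10 gives the lineage its identity, and EGR2, also called Krox20, switches on the myelin programme together with its NAB cofactors.

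The labelled tissue and genotype were checked in each library. The keratinocyte genes Krt5 and Krt14 had at least 764 and 1214.5 FPKM in a library. Gsdmd had 14.0 and 18.2 FPKM in WT skin, against 3.53 and 2.26 FPKM in GSDMD KO mice, with no overlap between the genotypes (log2 fold change -2.14, standard error 0.29, adjusted p = 0.248 by limma). KO replicate 2 stood apart: its summed FPKM over 6 fibroblast genes was 0.0856 times the mean of the other 3 libraries. The 4 Y-linked genes checked (Ddx3y, Kdm5d, Uty and Eif2s3y) were above 0 in that library only, with a sum of 1.78 FPKM, which goes against the label female for the library labelled KO replicate 2. KO replicate 1 was the library with most hair follicle RNA, 57.1 times the WT mean over 7 hair follicle genes.

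Schwann cell transcripts were present in all libraries. Sox10 had 3.58 and 3.19 FPKM in WT skin, against 5.97 and 3.17 FPKM in KO replicates 1 and 2. Oligodendrocytes, which make the myelin of the brain and share Mbp and Mag with Schwann cells, had little trace here: the 4 oligodendrocyte genes Mog, Mobp, Opalin and Olig2 summed to at most 0.0986 FPKM in a library, and 2 of them, Opalin and Olig2, were listed at 0 in all 4. 

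The 4 members that build or anchor the myelin sheath, Pmp22, Mbp, Prx and Mag, shared a pattern in which the KO libraries differed from each other. In FPKM as deposited they lay between the WT libraries in KO replicate 1, an order that other scalings changed, and in KO replicate 2 they lay at 0.156 to 0.281 times the mean of the other 3 libraries. Egr2 and L1cam had the opposite order, with both KO libraries above both WT libraries. Ngfr did not separate the groups in either direction. None of the 7 passed the threshold of the study, an adjusted p under 0.05 with an absolute log2 fold change above 1, in limma on log2(FPKM + 1), where percent called over all 13027 genes tested was 0. With an unadjusted p under 0.05, whatever the fold change, limma held 2 of the 7 members (Egr2 and L1cam), against 2230 of all genes tested, or 17.1%.

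**Figure D1:**
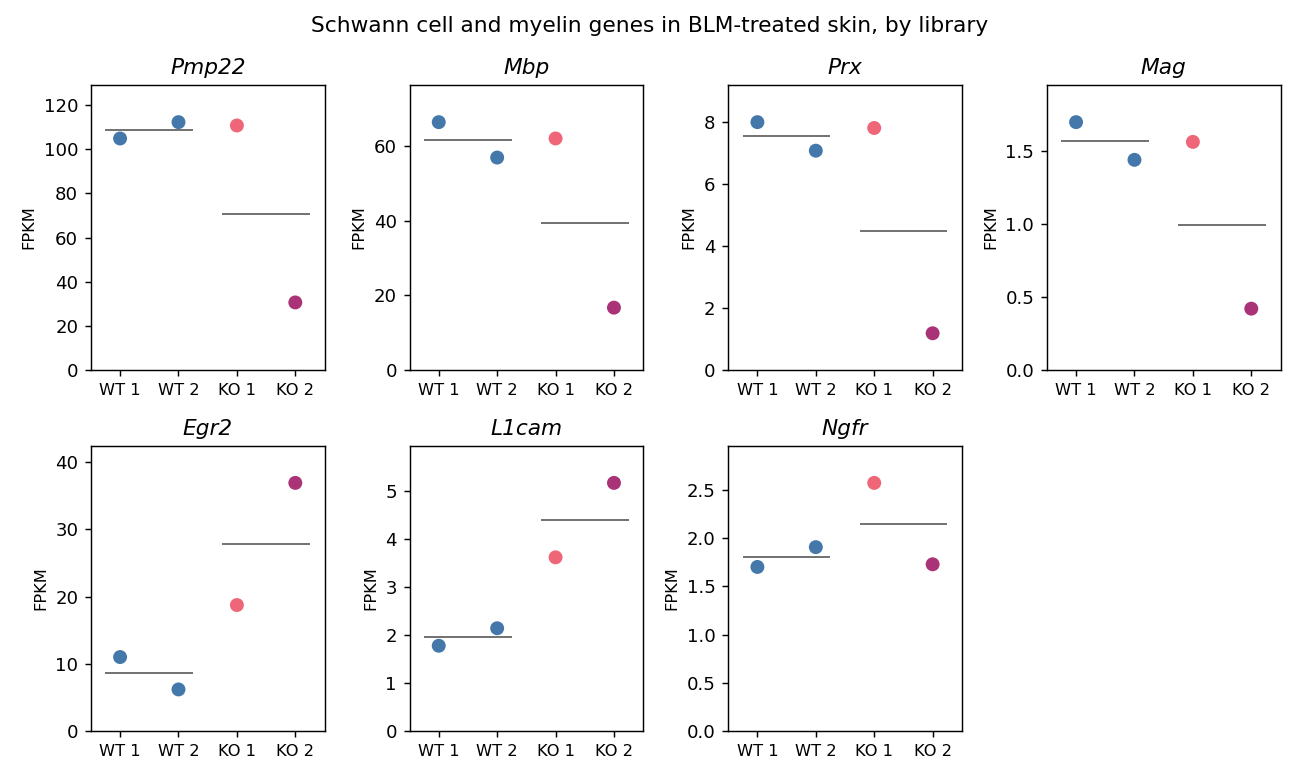
FPKM (vertical axes, each from 0) of the 7 genes in the 2 WT and 2 GSDMD KO libraries (horizontal axis); points are libraries and grey lines are group means. In FPKM as deposited Pmp22, Mbp, Prx and Mag are low in KO replicate 2 alone (with upper-quartile factors all 4 are lower in both KO libraries), while Egr2 and L1cam are higher in both KO libraries than in both WT libraries.

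The sequences upstream of 3 of the genes that were low together, Prx, Mag and Pmp22, are printed so that the start regions of genes with like values can be compared. Each is the 250 bases before the most upstream RefSeq start of the gene in build GRCm38.p6, on the strand of the gene. Capitals mark a match to a searched motif.
Prx, chr7:27499074-27499323, plus strand: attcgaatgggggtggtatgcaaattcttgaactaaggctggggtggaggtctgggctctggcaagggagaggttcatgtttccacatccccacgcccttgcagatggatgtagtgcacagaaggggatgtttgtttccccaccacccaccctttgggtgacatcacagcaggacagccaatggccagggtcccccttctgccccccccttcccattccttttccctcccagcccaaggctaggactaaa
Mag, chr7:30914923-30915172, minus strand: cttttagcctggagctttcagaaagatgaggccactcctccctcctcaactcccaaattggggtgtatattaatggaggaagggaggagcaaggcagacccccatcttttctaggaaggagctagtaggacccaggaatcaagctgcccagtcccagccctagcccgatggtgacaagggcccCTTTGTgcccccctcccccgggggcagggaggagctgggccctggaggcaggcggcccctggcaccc
Pmp22, chr11:63128732-63128981, plus strand: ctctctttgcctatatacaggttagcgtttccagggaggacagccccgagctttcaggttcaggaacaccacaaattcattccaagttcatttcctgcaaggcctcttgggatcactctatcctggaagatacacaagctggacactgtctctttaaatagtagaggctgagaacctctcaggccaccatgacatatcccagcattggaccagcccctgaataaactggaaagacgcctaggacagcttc

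The search used the EGR motifs GCGTGGGCG and GCGGGGGCG and the SOX motif AACAAT, together with a second SOX motif written ACAAAG, on both strands, and none of these strings contains another. It covered the 250 bases before each start. The table of RefSeq promoters used here gave 16 starts for 6 of the 7 members, and Mbp was not analysed. Neither EGR motif nor AACAAT was in any of the 16 windows, and over all 32851 windows of the same 250 bases 3.06% held an EGR motif and 9.42% held AACAAT. Some of the 16 windows overlap, among them windows of Egr2, L1cam and Pmp22, so they are not separate stretches. With so few windows and such shares, the absence of a match says little. The second SOX motif was in 2 windows, both overlapping ones of Mag, where it reads CTTTGT at 62 to 67 bases before the start printed above, and 16.5% of all windows held it. In the printed sequences the share of G and C was 56.4% for Prx, 61.2% for Mag and 48.8% for Pmp22. These matches describe letters in short windows and not binding.

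Pmp22 encodes a membrane protein of compact myelin whose gene dosage underlies inherited demyelinating neuropathy, and it is also made outside nerves. It spans 62942484 to 62973049 of chromosome 11 in build mm9 and was the most abundant member in WT skin. It had 105 and 112 FPKM in WT skin, against 111 and 30.7 FPKM in KO replicates 1 and 2. In FPKM as deposited KO replicate 1 thus lay between the WT libraries and KO replicate 2 was low, but with upper-quartile factors KO replicate 1 was also under both WT values. Its log2 fold change was -0.88 (standard error 0.61, 95% interval -2.44 to 0.68, adjusted p = 0.463 by limma), and without KO replicate 2 it was 0.03.

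Mbp encodes the myelin basic proteins that hold the inner faces of the myelin membrane together. The gene spans 82644515 to 82755029 of chromosome 18 in build mm9. Of its 16 annotated transcripts, 4 start within 1 kb of the most upstream start and 12 start more than 50 kb downstream, the first of them 79.3 kb away. Transcripts from the upstream start encode the golli proteins, which are known from immune and neural cells, and the gene-level FPKM does not separate them from the classic myelin transcripts. Mbp had 66.3 and 56.8 FPKM in WT skin, against 61.9 and 16.7 FPKM in KO replicates 1 and 2. On the log2 scale the fold change of Mbp was -0.90 (standard error 0.62, 95% interval -2.48 to 0.67, adjusted p = 0.457 by limma), and it was 0.01 without KO replicate 2.

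Prx encodes periaxin, a scaffold that links the outer myelin membrane to the surrounding basal lamina. It spans 28284343 to 28305060 of chromosome 7 in build mm9, and its exons overlap Gm15541 on the opposite strand. Whether reads were counted by strand is not given in the sources used here, so reads of the pair may not have been told apart. Prx had 7.98 and 7.07 FPKM in WT skin, against 7.80 and 1.19 FPKM in KO replicates 1 and 2, so that KO replicate 2 held 0.156 times the mean of the other libraries, the lowest such ratio of the 7 members. The log2 fold change of Prx was -0.96 (standard error 0.67, adjusted p = 0.467 by limma). Leaving out KO replicate 2 gave 0.05, and leaving out KO replicate 1 gave -1.96.

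Mag encodes an adhesion protein of the membrane that faces the axon. It spans 31684200 to 31699941 of chromosome 7 in build mm9 and was the least abundant member in WT skin. It had 1.70 and 1.44 FPKM in WT skin, against 1.56 and 0.421 FPKM in KO replicates 1 and 2. At the depth estimated from the steps of low genes, the value in KO replicate 2 corresponds to about 13.0 fragments and those in WT to about 72.1 and 49.6. The log2 fold change of Mag was -0.43 (standard error 0.36, adjusted p = 0.530 by limma) on a scale that understates low genes, and -0.84 with a pseudocount of 0.1.

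The low values of these 4 members in KO replicate 2 were set against all genes by a rule chosen after their values were seen, a value under 50% of the lowest of the other 3 libraries. It held for 4 of the 7 members and for 10.9% of all genes tested. KO replicate 2 was the lowest library for 4 of the 7, against 33.3% of all genes, and the highest for 2 of the 7, against 41.6%. The difference of KO replicate 2 from the mean of the other libraries was -1.98 for Prx, -1.82 for Mbp, -1.80 for Pmp22 and -0.85 for Mag on the log2(FPKM + 1) scale. Over all genes tested the median of that difference was 0.10, and 3.48%, 4.21%, 4.35% and 13.8% of genes, in the same order, had a lower one.

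Other structural genes of peripheral myelin were read from a list of 13 genes, of which 9 were tested. Of these 9, 7 had a negative and 2 a positive log2 fold change, where 5392 of the 13027 genes tested were negative and 7635 positive. Their median was -0.69 beside 0.11 over all genes tested (-0.17 when the 4 genes of the list under the filter were included), and 0 passed the threshold by limma (at the unadjusted limit, where p before adjustment is under 0.05 with the same fold limit, 1 was higher and 0 lower). In KO replicate 2, 6 of the 9 lay under 50% of the lowest other library. Drp2, which binds periaxin, had 4.01 and 2.94 FPKM in WT skin, against 3.25 and 0.776 FPKM in KO replicates 1 and 2. Cldn19, a tight junction protein of the myelin edge, had 3.25 and 3.47 FPKM in WT skin, against 2.60 and 0.521 FPKM in KO mice, and Cnp, an enzyme of the myelin cytoplasm, had 16.6 and 19.1 FPKM in WT skin, against 14.4 and 5.65 FPKM in KO mice. Without KO replicate 2 the median of the list was -0.03.

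KO replicate 2 was the lowest library for 10 of the 13 genes of the list and the highest for 1, and the margin differed between genes. Cadm4, an adhesion protein of the membrane facing the axon, had 7.82 and 8.95 FPKM in WT skin, against 8.38 and 6.55 FPKM in KO mice. Its value in KO replicate 2 was thus the lowest, but at 0.838 times the lowest of the other libraries. Sh3tc2, an endosomal protein of myelinating cells, was higher in both KO libraries, with 1.76 and 3.57 FPKM against 0.714 and 0.836 FPKM in WT (log2 fold change 1.00, standard error 0.33, adjusted p = 0.260 by limma).

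**Figure D2:**
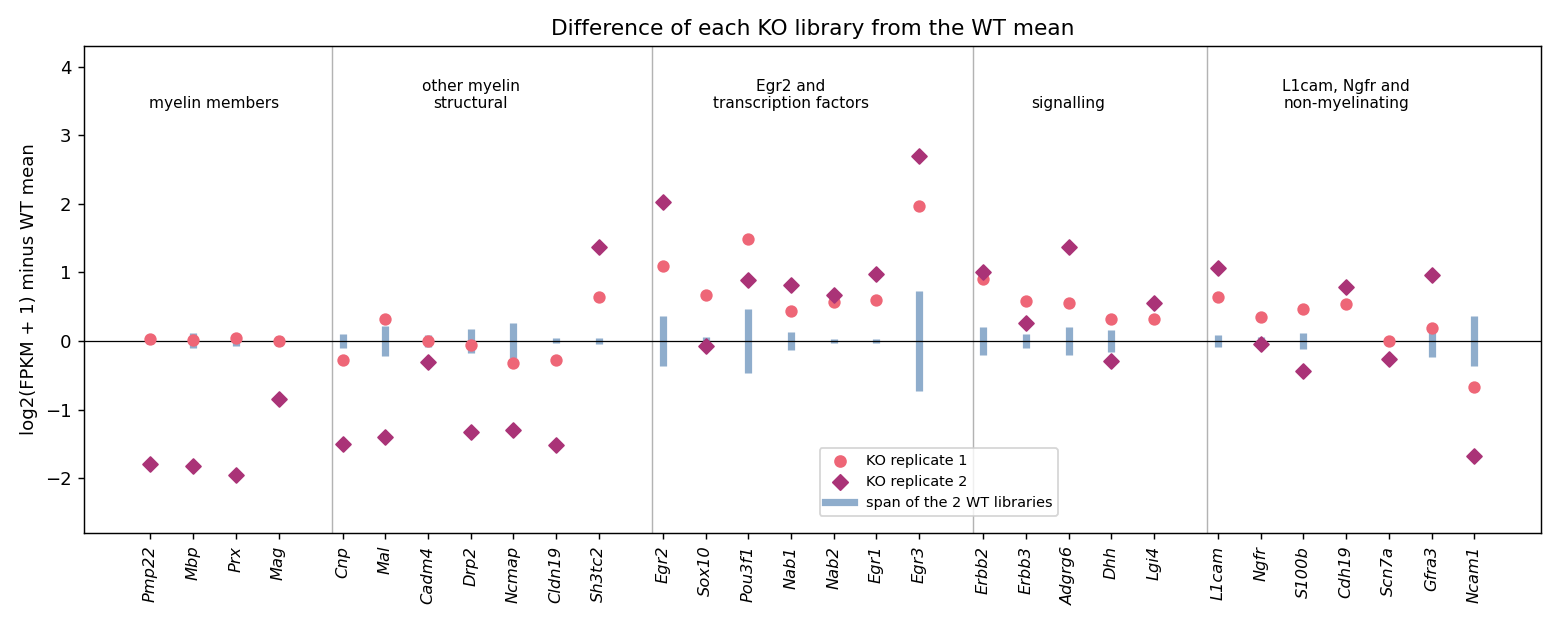
Difference of each KO library from the WT mean on the log2(FPKM + 1) scale (vertical axis) for the members and other tested Schwann cell genes (horizontal axis); blue bars span the 2 WT libraries. Cldn19, at -1.52, lies with the 4 myelin members low in KO replicate 2, whereas Sox10, at -0.07, stays near the WT mean there.

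Egr2, the transcription factor of the myelin programme, spans 67000617 to 67004936 of chromosome 10 in build mm9. It is also known from hair follicles and activated immune cells. It had 11.0 and 6.18 FPKM in WT skin, against 18.7 and 36.9 FPKM in KO replicates 1 and 2. Both KO libraries lay above both WT libraries, and KO replicate 2, in which the myelin members were lowest, held the most Egr2. The log2 fold change of Egr2 was 1.56 (standard error 0.44, 95% interval 0.45 to 2.67, adjusted p = 0.248 by limma), and leaving out each library in turn gave 1.09 to 2.03. With all 4 libraries its unadjusted p was 0.0154 by limma, and 6.16% of all genes tested were higher at an unadjusted p under 0.05 with an absolute log2 fold change above 1, a limit that Egr2 met. In the other direction 0 of the 7 members met it, against 4.14% of all genes.

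Most genes that act with Egr2 or belong to its family had larger values in the KO libraries, without passing the test. Of 7 genes in the list of transcription factors, 6 were tested. All 6 had a positive log2 fold change, as had 7635 of all 13027 genes. Their median was 0.71 beside 0.11 over all genes tested, and 0 passed the threshold by limma. At the unadjusted limit 2 were higher, against 6.16% of all genes. In 5 of the 7 both KO libraries lay above both WT libraries, an order held by 35.3% of all genes tested. Egr3, a relative of Egr2, had 6.77 and 1.82 FPKM in WT skin, against 17.2 and 29.3 FPKM in KO replicates 1 and 2. Egr1, an immediate early gene of many cell types, had 16.0 and 15.4 FPKM in WT skin, against 24.2 and 31.8 FPKM in KO mice. Nab1 and Nab2, the EGR cofactors, had log2 fold changes of 0.63 and 0.62 (adjusted p = 0.313 and 0.280 by limma). Pou3f1, which acts before Egr2 in Schwann cells and is also made in epidermis, had 9.41 and 4.44 FPKM in WT skin, against 20.0 and 12.9 FPKM in KO mice. Sox10 did not separate the groups.

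L1cam encodes an adhesion molecule of axons and of Schwann cells that do not make myelin. It spans 71099119 to 71126173 of chromosome X in build mm9, and its exons overlap Arhgap4 on the same strand, so reads of the pair could have been shared in counting. L1cam had 1.77 and 2.14 FPKM in WT skin, against 3.61 and 5.16 FPKM in KO replicates 1 and 2. On the log2 scale the fold change of L1cam was 0.85 (standard error 0.27, 95% interval 0.16 to 1.55, adjusted p = 0.257 by limma), and its unadjusted p was 0.0249 by limma. L1cam and Egr2 were the 2 members of 7 with both KO libraries above both WT libraries, an order that 35.3% of all genes tested had. In none of the members were both KO libraries under both WT libraries, an order of 20.5% of all genes tested. These counts depended on scaling. With median-ratio factors 3 members (Mbp, Prx and Mag) were lower in both KO libraries and 2 higher, against 26.4% and 27.6% of all genes. With upper-quartile factors 4 (these 3 and Pmp22) were lower and 2 higher, against 26.8% and 27.2%.

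Among relatives and partners of L1cam in a list of 5 adhesion genes, only Chl1 was tested. Chl1, the close homologue of L1, had 3.14 and 3.71 FPKM in WT skin, against 5.24 and 5.98 FPKM in KO mice (log2 fold change 0.58, adjusted p = 0.306 by limma). Nrcam, Nfasc, Cntn1 and Cntn2 were under 1 FPKM in every library.

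Ngfr encodes p75, the low-affinity receptor of the neurotrophins, found on immature and non-myelinating Schwann cells, sensory axons and some hair follicle cells. It spans 95430140 to 95449012 of chromosome 11 in build mm9. It had 1.70 and 1.91 FPKM in WT skin, against 2.57 and 1.73 FPKM in KO replicates 1 and 2. KO replicate 1 was the highest library, KO replicate 2 lay between the WT libraries, and the groups overlapped. The log2 fold change of Ngfr was 0.16 (standard error 0.26, 95% interval -0.52 to 0.83, adjusted p = 0.760 by limma), and it was -0.04 without KO replicate 1.

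Of the neurotrophins and their receptors, 6 of 8 genes were tested, 5 had a positive log2 fold change, as had 7635 of all 13027 genes, and 0 passed the threshold by limma. At the unadjusted limit 2 were higher, against 6.16% of all genes. Ntf3, the ligand neurotrophin 3, had 1.26 and 0.520 FPKM in WT skin, against 2.32 and 3.42 FPKM in KO mice. Sort1, a coreceptor of p75, was lowest in KO replicate 2, with 8.03 FPKM against 12.6 to 19.9 FPKM elsewhere.

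Genes of Schwann cells that do not depend on myelin had no common direction in KO replicate 2. Of 7 genes in the list of non-myelinating and pan-Schwann genes, 5 were tested. Their median log2 fold change was 0.01 beside 0.11 over all genes tested. It was -0.15 with median-ratio factors and -0.35 without KO replicate 1. By limma 0 passed the threshold, and 1 was lower at the unadjusted limit, against 4.14% of all genes. Scn7a, a sodium channel of non-myelinating Schwann cells, had 2.80 and 3.12 FPKM in WT skin, against 2.97 and 2.28 FPKM in KO mice. S100b, a calcium-binding protein of glia, had 2.86 and 2.29 FPKM in WT skin, against 3.92 and 1.63 FPKM in KO mice. Cdh19, a cadherin of the Schwann cell lineage, had 0.669 and 0.683 FPKM in WT skin, against 1.45 and 1.89 FPKM in KO mice. Gfra3, a receptor subunit for the ligand artemin, had 0.749 and 1.42 FPKM in WT skin, against 1.33 and 2.999 FPKM in KO mice. Ncam1, a gene that muscle and nerve both make, was at 11.2 and 6.31 FPKM in WT skin, against 4.92 and 1.96 FPKM in KO mice (log2 fold change -1.17, adjusted p = 0.290 by limma). The difference between the myelin and the non-myelin genes was not tested.

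The list of signalling genes between axon and Schwann cell had 5 of 7 genes tested. All 5 had a positive log2 fold change, as had 7635 of all 13027 genes. Their median was 0.44 beside 0.11 over all genes tested, and 0 passed by limma, at the adjusted or the unadjusted limit. Erbb3, the neuregulin receptor of Schwann cells, had 3.85 and 3.22 FPKM in WT skin, against 5.80 and 4.43 FPKM in KO mice, and its partner Erbb2, which keratinocytes also make, had 10.5 and 7.72 FPKM in WT skin, against 17.7 and 19.1 FPKM in KO mice. Adgrg6, a receptor needed for myelination, had 1.90 and 1.20 FPKM in WT skin, against 2.70 and 5.53 FPKM in KO mice. Dhh, a hedgehog ligand made by Schwann cells, had 1.17 and 1.70 FPKM in WT skin, against 2.01 and 0.988 FPKM in KO mice (log2 fold change 0.02).

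Repair genes, which Schwann cells switch on after nerve injury, were low in all libraries apart from Jun, the 1 gene tested of 8. Jun, which many skin cells make, had 42.6 and 43.5 FPKM in WT skin, against 47.7 and 29.0 FPKM in KO mice. Of 3 genes for myelin galactolipids, Fa2h stood out, with 18.4 and 8.44 FPKM in WT skin, against 111 and 617 FPKM in KO replicates 1 and 2 (log2 fold change 4.28, standard error 0.86, adjusted p = 0.248 by limma). Fa2h hydroxylates fatty acids in myelin and also in epidermis and sebaceous glands. Ugt8a, the transferase that makes galactosylceramide, was under 1 FPKM in every library, with 0.0406 FPKM in KO replicate 2.

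KO replicate 2 was the lowest library for 5 of 8 axon and neuron genes, against 33.3% of all genes tested. The 3 tested ones, Tubb3, Uchl1 and Stmn2, were all lowest there. All 3 had negative log2 fold changes, with a median of -0.66 beside 0.11 over all genes tested. Over the 8 axon and neuron genes the summed FPKM was 14.0 and 16.0 in WT, 12.2 in KO replicate 1 and 5.56 in KO replicate 2, and of 3 tested genes 0 passed by limma, at the adjusted or the unadjusted limit. Tubb3, Uchl1 and Stmn2 made up most of the sum. Tubb3 had 6.09 and 7.97 FPKM in WT skin, against 4.61 and 2.78 FPKM in KO mice. Uchl1, an abundant neuronal enzyme, had 5.60 and 4.98 FPKM in WT skin, against 4.91 and 1.69 FPKM in KO mice. The neurofilament genes Nefl, Nefm and Nefh were under 1 FPKM in every library. So were Prph, an intermediate filament of peripheral neurons, and Scn10a, a sodium channel of pain fibres, neither of which was lowest in KO replicate 2.

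Fibroblast, endothelial, macrophage and adipocyte markers were lower still in KO replicate 2. Summed over each list, this library held 0.0856 times the mean of the other 3 for 6 fibroblast genes (24.9 against 180.1 to 422 FPKM), 0.0920 times for 5 endothelial genes (7.54 against 63.4 to 94.2 FPKM) and 0.0712 times for 5 adipocyte genes (208 against 1753 to 4798 FPKM). The 7 members summed to 92.8 FPKM there against 188 to 207 FPKM in the other libraries, 0.472 times their mean. This sum mixes opposite patterns, since 36.9 FPKM of it was Egr2, which was highest there. Taken singly, Pmp22, Mbp, Prx and Mag lay at 0.156 to 0.281 times that mean. The list of 13 other myelin structural genes summed to 0.297 times. For 5 macrophage genes the sum was 229 and 324 FPKM in WT, 84.3 FPKM in KO replicate 1 and 16.1 FPKM in KO replicate 2. Skeletal muscle genes summed to 17661 and 16656 FPKM in WT and to 11257 and 10300 FPKM in KO mice. Keratinocyte genes in KO replicate 2, with 5101 FPKM, were above the WT libraries, at 4920 and 3535 FPKM, and below KO replicate 1, at 10595 FPKM. Within that list Krt5 and Krt14 were above WT in KO replicate 2, whereas Krt1, Krt10 and Lor, genes of the differentiated epidermis, were lowest there, with 280 FPKM for Krt1, 266 FPKM for Krt10 and 155 FPKM for Lor against at least 381, 364 and 810 FPKM elsewhere. Smooth muscle genes summed to 1269 and 1329 FPKM in WT and to 1024 and 666 FPKM in KO mice. No gene of these marker lists was at 0 in all 4 libraries. The part of the dermal makeup of KO replicate 2 in the low myelin values was not tested.

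Cells of the hair follicle and pigment cells were counted beside the genes they share with Schwann cells. Melanocytes also make Sox10 and Erbb3, and the 6 melanocyte genes summed to 8.97 and 5.27 FPKM in WT, 79.4 FPKM in KO replicate 1 and 6.29 FPKM in KO replicate 2. The 7 hair follicle genes summed to 9.45 and 1.54 FPKM in WT, 314 FPKM in KO replicate 1 and 17.7 FPKM in KO replicate 2, where Krt25 and the melanocyte gene Slc45a2 were listed at 0. The highest Sox10 and Ngfr values therefore fell in the library with most melanocyte and hair follicle RNA, whereas Egr2 and L1cam were highest in KO replicate 2. The part of these cells in those values was not tested.

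**Figure D3:**
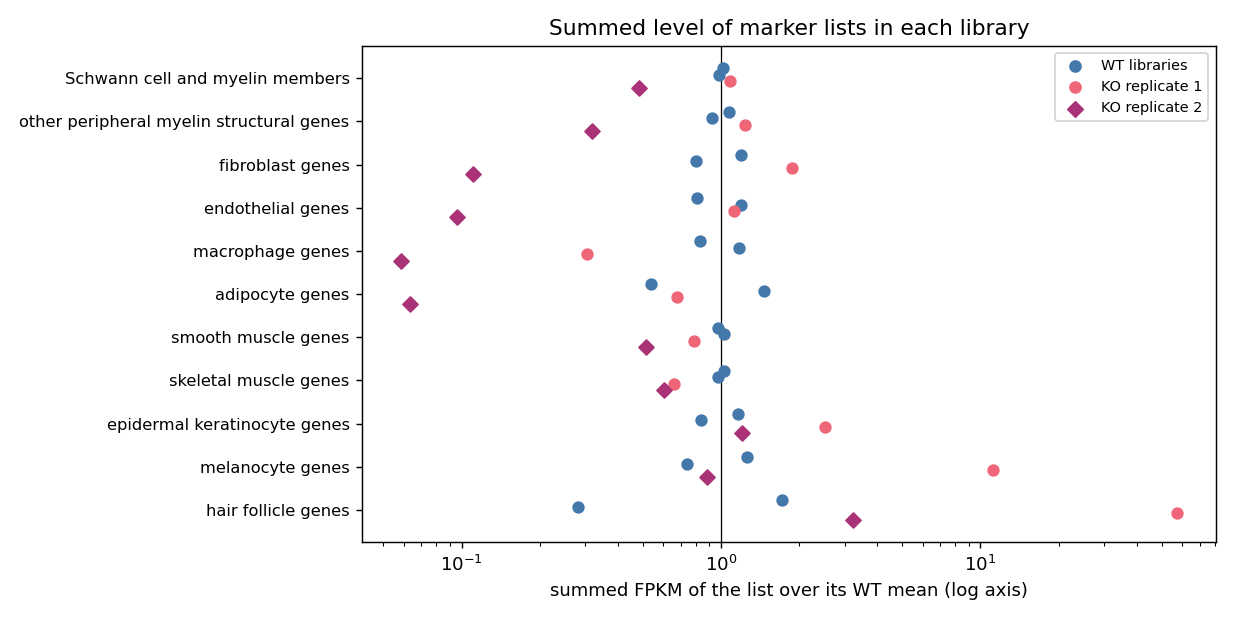
Summed FPKM of each gene list over its WT mean (horizontal log axis) in the 4 libraries; points are libraries. In KO replicate 2 the fibroblast, endothelial, macrophage and adipocyte lists lie furthest below the WT mean, and in KO replicate 1 the hair follicle list lies at 57.1 times and the melanocyte list at 11.1 times that mean.

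The order of the members by FPKM, a measure per transcript length, differed between libraries. In WT replicates 1 and 2 and in KO replicate 1 the order began with Pmp22 and Mbp. In the WT libraries Egr2 and Prx followed, with ranges that overlapped, then L1cam and Ngfr, which also overlapped, and Mag, whose higher value of 1.695 FPKM was just under the lower Ngfr value of 1.701 FPKM. In KO replicate 2 Egr2 came first, with 36.9 FPKM, ahead of Pmp22 (30.7 FPKM) and Mbp (16.7 FPKM), and L1cam (5.16 FPKM) stood above Prx (1.19 FPKM). 

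The mean profile of the 7 members, each centred over the 4 libraries on the log2(FPKM + 1) scale, was 0.11 and -0.02 in WT and 0.35 and -0.44 in KO replicates 1 and 2. It averages members with opposite patterns. The tested genes nearest to it were E130102H24Rik, Serpine2, Tgfb1i1, Sertad1 and Cited1, at distances of 0.0632 to 0.0762 log2 units over 4 libraries. Serpine2, a protease inhibitor, had 56.2 and 49.1 FPKM in WT skin, against 63.5 and 37.9 FPKM in KO mice.

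Leaving out single libraries showed on which of them each value rests. The median log2 fold change of the 7 members was -0.43 beside 0.11 for all genes tested, and it became 0.05 when KO replicate 2 was left out and -0.85 when KO replicate 1 was. Without KO replicate 1, when only KO replicate 2 stood for the GSDMD KO group and was assumed to vary like the WT libraries, limma called Mbp, Pmp22 and Prx lower, while 9.26% of all genes tested were called lower, and Egr2 higher, beside 5.96% of all genes. Without KO replicate 2 limma called 0 of the 7, with 0.126% of all genes called higher and 0.118% called lower. An exact two-sided permutation test of 2 against 2 libraries cannot give a p below 0.333, so it was not used for single members.

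**Figure D4:**
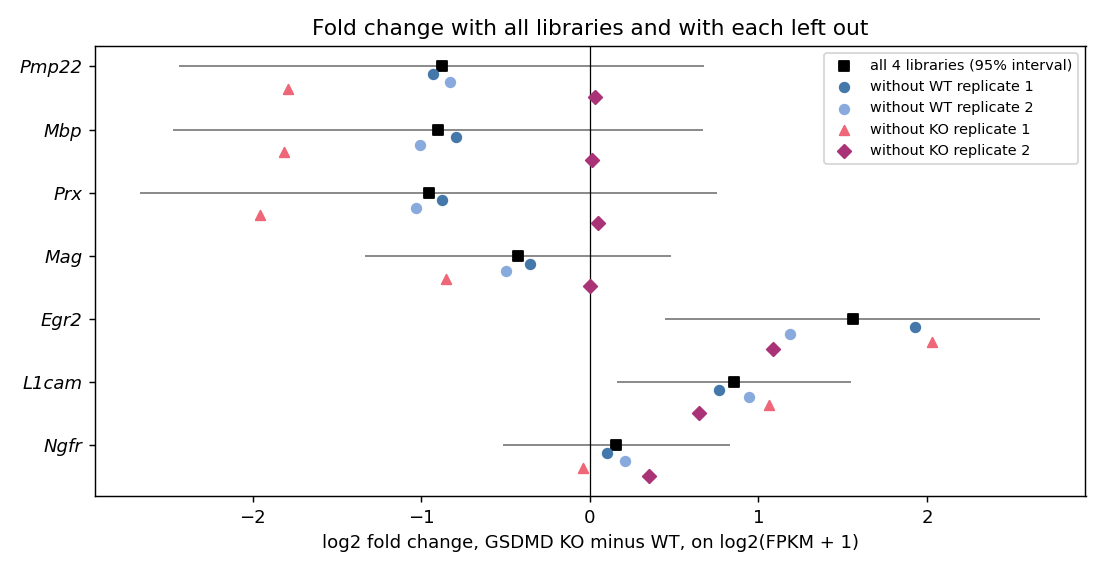
Log2 fold change, GSDMD KO minus WT, on the log2(FPKM + 1) scale (horizontal axis) of the 7 genes; squares with lines are the fit of all 4 libraries with its 95% interval, and the other points leave out 1 library. Without KO replicate 2 the values of Pmp22, Mbp, Prx and Mag lie between 0.00 and 0.05, while Egr2 stays at 1.09.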

How the data were processed

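Reads had been aligned by the authors with HISAT2 to build mm9. The submitters' processing notes list HISAT2 2.0.1 and StringTie 2.0.6. The deposited table, named as counts, holds FPKM values: 99.993% of those above 0 are not whole. The paper describes read counting and DESeq2, but those counts were not used here. Rows without a gene name numbered 0. Table starts, counted from 0, were raised by 1, and 99.2% of 20310 genes found by symbol overlapped the mm9 GENCODE gene.

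Values were transformed to log2(FPKM + 1). Genes reaching 1 FPKM in 2 or more libraries, 13027 in all, entered a fit by limma 3.58.1 in R 4.3.3, with genotype as the only term, a mean-variance trend and Benjamini-Hochberg adjustment, after a test on simulated data. Tables were made with Python 3.11.15 and pandas 2.3.3. No source ties a library to a named animal, so p-values measure the spread between these libraries, which may be technical. Depth was estimated from low genes that have 1 transcript, 2 kb or longer, where 1 fragment on 1 kb is worth 0.0571 to 0.0786 FPKM. Fragment numbers assume the longest transcript and are approximate. Other scalings, filters, pseudocounts, a replicate block and leaving out each library were tried as alternatives.

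The members and gene lists were chosen with earlier results of these data known. Named genes are the 7 members, genes of the lists where discussed, Gsdmd, and the 5 genes nearest to the members' mean profile. The Y-linked genes were chosen after their values were known. Some genes of the lists entered the counts and sums but are not reported here by name.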

Additional observations from a re-analysis of the deposited data

How the results depend on the processing

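Under the 9 settings that keep all 4 libraries, 63 of 63 member values kept their direction and their side of the threshold by limma. Changing the filter, the trend or the block leaves the fold change of a gene as it is, so directions could not change under those settings. The number of genes called by limma was 0 under each of the 9, so the 63 values are a weak check. Scaling by median-ratio factors shifted the median of all genes from 0.11 to 0.01. The number of members whose groups do not overlap moved from 2 to 5 with median-ratio factors and to 6 with upper-quartile factors, where 54.0% and 54.1% of all genes did not overlap, against 55.8% without these factors, and a pseudocount of 0.1 moved the median of the members to -0.84. Depth limits Mag most.

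Leaving out 1 library gave log2 fold changes from -1.82 to 0.0126 for Mbp, -1.79 to 0.0293 for Pmp22, -1.96 to 0.0472 for Prx, -0.85 to 0.00 for Mag, 1.09 to 2.03 for Egr2, 0.65 to 1.06 for L1cam and -0.0383 to 0.35 for Ngfr. The median of the members ran from -0.85 to 0.0472, and the members without overlap numbered 3 to 6, where 71.2% to 86.1% of all genes did not overlap. Genes called by limma ran from 0 to 1920, the most without KO replicate 1, and genes at an unadjusted p under 0.05 with an absolute log2 fold change above 1 ran from 264 to 1288 higher and from 205 to 1600 lower, against 802 and 539 with all libraries. Those with 1 KO library compare that library, and the cause of these moves was not tested.

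With the replicate number as a block, 907 genes were higher and 686 lower at the same unadjusted limit, 0 were called by limma, and no member's call changed (adjusted p for Egr2 = 0.178 by limma). Deviations of same-numbered libraries had a correlation of -0.20 over 13027 genes, and the labels tie no number to a batch. With the numbers crossed, a setting chosen after seeing the data, 819 genes were higher, 681 lower and 0 were called by limma. Without the filter on low values the medians moved to -0.17 for other myelin structural genes, 0.44 for galactolipid genes, 0.21 for repair genes and -0.0011 for the L1 family.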
